A study of Mus musculus with 8 samples.

Results

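The fibroblast growth factor (FGF) receptor genes Fgfr1, Fgfr2, Fgfr3, Fgfr4 and Fgfrl1 and the ligand gene Fgf2 were followed in 4 mouse epithelial cell lines, at rest and after a stimulus used to induce epithelial-mesenchymal transition (EMT), in which epithelial cells take on fibroblast-like traits. The members were the probe sets that the platform annotation assigns to one of these 6 symbols alone, 16 of 45037 analysed probe sets of an Affymetrix whole-genome array. There were 3 for Fgfr1, 3 for Fgfr2, 2 for Fgfr3, 5 for Fgfr4, 2 for Fgfrl1 and 1 for Fgf2. EpH4 and NMuMG are mammary gland lines, mProx is a proximal renal tubular line and MCT a renal tubular line, and the labels mark EpH4 as resistant to EMT. For every line there was 1 array at rest and 1 after cells had received recombinant human TGF-β1 at 3 ng/mL together with recombinant human EGF at 3 ng/mL for 24 h, so the parts played by the 2 factors cannot be told apart. The resting cells had the same K-1 medium, and all cells had been kept in it, with transferrin and insulin, for 24 h before the treatment. Nothing in the labels says how many cultures lie behind an array, so no line has a replicate of a condition. The 4 lines stand as the replicates of the response, and a p-value here reflects no more than how far these lines differ. The RNA is from bulk cultures, in which fewer cells of a type and less RNA per cell cannot be told apart.

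FGF receptors are tyrosine kinases of the cell surface that bind FGF ligands together with heparan sulfate and pass the signal through adaptor proteins to the ERK pathway. Fgfr2 is known as a receptor of epithelia, where its IIIb splice form answers to FGFs made by the surrounding stroma, and Fgfr1 as a receptor of mesenchymal cells, where IIIc forms answer to Fgf2. Loss of the epithelial receptor and gain of the mesenchymal one has been described as a receptor switch of EMT. Each value below summarizes the probes of a probe set, and the values were not assigned to splice forms.

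Levels are log2 values after quantile normalization, and a change is the stimulated minus the resting level of the same line. Probe sets whose mean level over the 8 arrays reached 5.27, the 40th percentile, were tested, 27022 in all. Of the members 11 passed this filter, and 5 did not, namely 3 of Fgfr4, 1 of Fgfr2 and the one of Fgf2. The member closest above it was Fgfr3 1425796_a_at, with a mean level of 5.73, and the member closest below it Fgfr2 1443211_at, with 4.84. Levels of different probe sets are not compared with each other.

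Fgfr1, the receptor associated with mesenchymal cells, was higher after stimulation in each of the 4 lines by each of its 3 probe sets. For the brightest of them, 1424050_s_at, the deposited signal went from 686 to 1908 in NMuMG, from 712 to 1036 in mProx, from 286 to 407 in MCT and from 691 to 852 in EpH4. Its log2 level at rest was 9.95 in NMuMG, 9.25 in mProx, 9.02 in EpH4 and 8.19 in MCT, and after stimulation 10.97, 9.96, 9.61 and 8.95 in the same order. The order of the lines was therefore the same on both sides, and the resting and stimulated groups overlapped, with stimulated MCT below the resting levels of the other 3 lines and stimulated EpH4 below resting NMuMG. With 1 array for each, neighbouring lines such as mProx and EpH4 have no spread of their own against which to be compared. The change was 1.03 in NMuMG, 0.76 in MCT, 0.71 in mProx and 0.59 in EpH4, with a mean of 0.77 ± 0.19 (SD, n = 4), which is 1.71-fold.

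The other probe sets of Fgfr1 gave the same direction, and 1436551_at gave another order for mProx and MCT. With 1425911_a_at the change was 1.39 in NMuMG, 1.19 in MCT, 0.52 in mProx and 0.27 in EpH4, a mean of 0.84 ± 0.54 (SD, n = 4). The EpH4 value of this probe set was the one that turned with the scaling, to -0.02 on the values as deposited, where the median change of all tested probe sets was 0.32 in NMuMG but -0.29 in EpH4, -0.24 in MCT and -0.11 in mProx. With the dimmer 1436551_at the change was 1.00 in NMuMG, 0.57 in mProx, 0.50 in MCT and 0.49 in EpH4, a mean of 0.64 ± 0.24 (SD, n = 4). NMuMG had the largest increase by all 3. Levels of the 3 probe sets correlated with each other at r = 0.956 to 0.959 over the 8 arrays, which they share.

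Fgfr2, the receptor of epithelia, moved the other way. For 1433489_s_at the deposited signal went from 687 to 237 in mProx, from 340 to 171 in NMuMG, from 147 to 67.1 in MCT and from 709 to 541 in EpH4. Its log2 level at rest was 9.19 in mProx, 9.06 in EpH4 and 8.97 in NMuMG, close together, and 7.26 in MCT. After stimulation it was 7.82, 8.98, 7.70 and 6.50 in the same order, so that EpH4 alone was still in the range of the 3 brighter resting lines, and the groups overlapped. The change was -1.37 in mProx, -1.27 in NMuMG, -0.76 in MCT and -0.08 in EpH4, a mean of -0.87 ± 0.59 (SD, n = 4).

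For 1420847_a_at, the other Fgfr2 probe set that was tested, the deposited signal went from 264 to 105 in NMuMG, from 679 to 215 in mProx, from 95.9 to 43.1 in MCT and from 862 to 493 in EpH4. The change was -1.65 in NMuMG, -1.49 in mProx, -0.76 in MCT and -0.48 in EpH4, a mean of -1.10 ± 0.56 (SD, n = 4), or 2.14-fold lower. Both probe sets were lower in each line under quantile normalization, on the values as deposited and after scaling to one trimmed mean, and their levels correlated at r = 0.984 over the 8 arrays. They differed on EpH4, where one gave a 1.40-fold and the other a 1.06-fold lower level. The third, 1443211_at, was under the filter level on 7 of 8 arrays, and its changes of -1.21 in mProx, -0.97 in NMuMG, 0.18 in MCT and 0.46 in EpH4 rest on dim values.

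**Figure D1:**
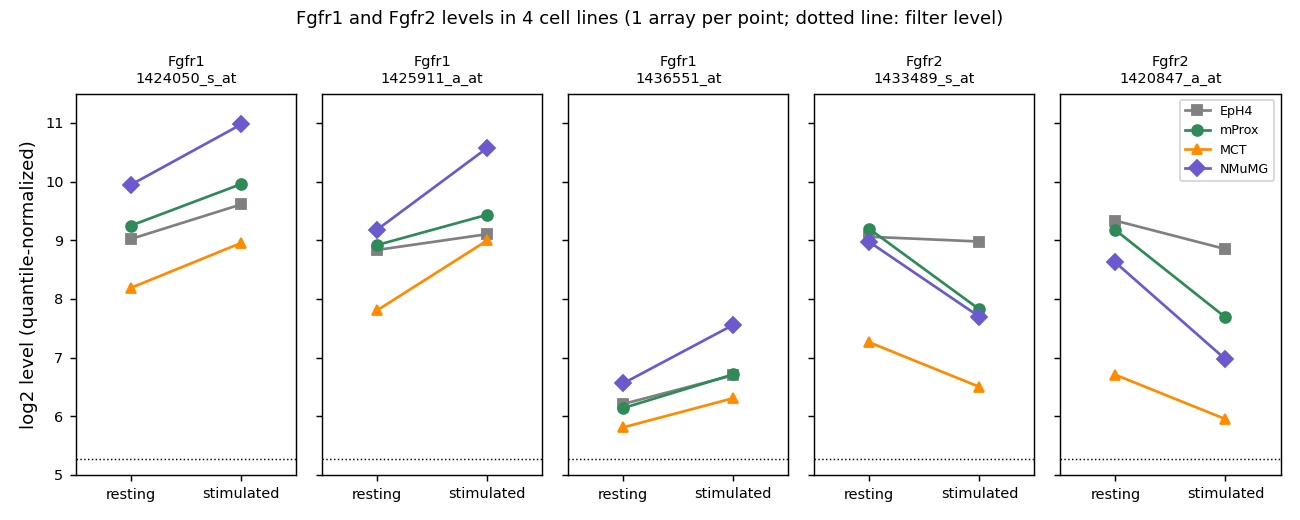
Log2 level (quantile-normalized) of the 3 Fgfr1 and 2 Fgfr2 probe sets that were tested, at rest and after stimulation, with a point per array and a line joining the 2 arrays of a cell line; the dotted line is the filter level of 5.27. All lines of Fgfr1 slope up and all lines of Fgfr2 slope down, the EpH4 line of Fgfr2 1433489_s_at by only 0.08.

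In limma's test of the response over 4 lines, 0 of 27022 probe sets passed an adjusted p of 0.05, so 0% were called, and 2969 had an unadjusted p under 0.05, which is 11.0% of those tested. Among the 11 tested members 0 passed and 6 were under an unadjusted 0.05, 4 higher (all 3 of Fgfr1 and 1 of Fgfrl1) and both of Fgfr2 lower, against a background of 5.79% higher and 5.20% lower. Counted by direction alone, 4 of the 11 tested members were higher in each of 4 lines and 2 were lower in each, against 10.1% and 9.00% of all tested probe sets. Probe sets of a gene are repeat readings on the same arrays, so these counts hold a gene more than once. With 1 probe set per gene, 2 of 5 tested genes were higher in each line and 1 was lower. On the values as deposited it was 1 and 2, where 744 and 2644 of the 27022 tested probe sets were so. Fgfr1 1424050_s_at came closest, with a change of 0.77, an SE of 0.11 and an adjusted p of 0.113, the 24th smallest p of all tested probe sets. The adjusted p was 0.205 and 0.286 for the other probe sets of Fgfr1, and 0.152 and 0.238 for Fgfr2 1420847_a_at and 1433489_s_at. Both Fgfr2 probe sets passed on the values as deposited, with limma adjusted p = 0.000306 and 0.00747, where 417 probe sets were called. Without EpH4 the number called was 18.

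Fitted on the 3 lines that are not marked as resistant, the changes were larger. Fgfr1 was higher by 0.83, 1.03 and 0.69 for 1424050_s_at, 1425911_a_at and 1436551_at, with SDs of 0.17, 0.46 and 0.27 over 3 lines and limma adjusted p = 0.103, 0.149 and 0.331. Fgfr2 was lower, with -1.30 ± 0.48 for 1420847_a_at and -1.14 ± 0.33 for 1433489_s_at (SD, n = 3; limma adjusted p = 0.124 and 0.117). Here 18 probe sets, 0.0666% of those tested, passed, and 3085 or 11.4% had an unadjusted p under 0.05, 6.12% higher and 5.30% lower. Of the 11 tested members 0 passed and 6 were under an unadjusted 0.05, 4 higher and 2 lower, the probe sets of a gene again being counted separately. The count of 18 became 42 without mProx and 101 without NMuMG. On the values as deposited, where 372 probe sets were called, Fgfr1 1425911_a_at passed with 1.02 (adjusted p = 0.0416) and both Fgfr2 probe sets passed, with adjusted p = 0.00329 and 0.0149.

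The place of a change among all tested probe sets of the same line puts these sizes in scale. In NMuMG 97.2% of tested probe sets had a lower change than Fgfr1 1424050_s_at, in EpH4 95.0%, in MCT 94.7% and in mProx 93.8%. For Fgfr2 1420847_a_at the share with a lower change was 0.611% in NMuMG, 0.859% in mProx, 4.99% in MCT and 7.37% in EpH4. For Fgfr2 1433489_s_at it was 1.11% in mProx, 1.72% in NMuMG, 4.96% in MCT and 37.8% in EpH4, so by this probe set EpH4 lay well inside the bulk of all changes.

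For the pair, the change of Fgfr1 minus the change of Fgfr2 measures how far the balance of the receptors moved within a line. With the brightest probe set of each gene it was 2.30 in NMuMG, 2.08 in mProx, 1.52 in MCT and 0.67 in EpH4, that is 4.93-fold, 4.23-fold, 2.87-fold and 1.59-fold. Over the 6 combinations of a tested Fgfr1 with a tested Fgfr2 probe set it was 2.27 to 3.05 in NMuMG, 1.89 to 2.20 in mProx, 1.25 to 1.95 in MCT and 0.35 to 1.07 in EpH4. EpH4 had the smallest value in each combination. This quantity was formed with the direction of both genes known and is given without a test.

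**Figure D2:**
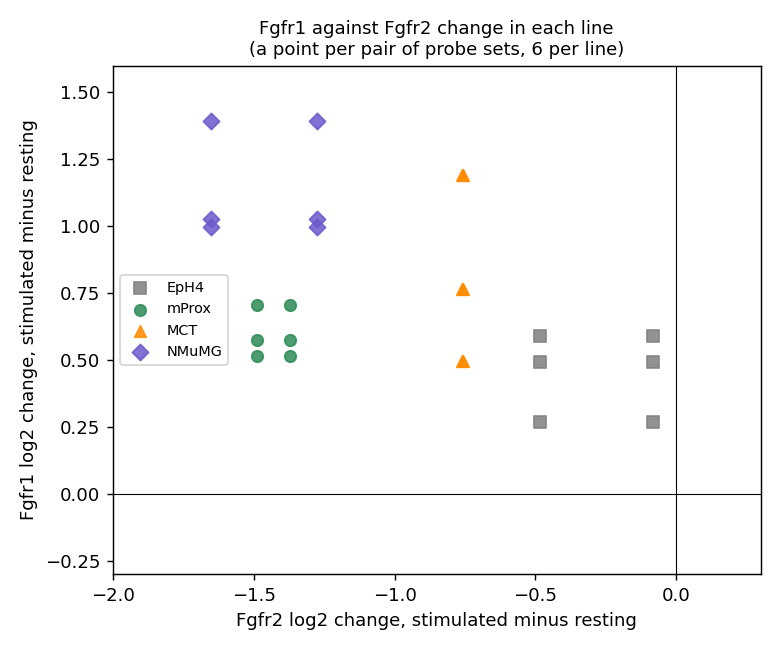
Change of Fgfr1 (vertical axis) against change of Fgfr2 (horizontal axis), both as log2 of stimulated minus resting, with a point per pair of probe sets, 6 for each line. All points lie above 0 for Fgfr1 and below 0 for Fgfr2, EpH4 nearest to the origin on the Fgfr2 axis and NMuMG and mProx farthest from it.

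The response of EpH4 was also set against that of the remaining lines, and no probe set was called (0 of 27022 by limma, 863 or 3.19% at an unadjusted p under 0.05). The EpH4 change of Fgfr2 1433489_s_at exceeded that of the others by 1.05 with an SE of 0.37 (unadjusted p = 0.0231, limma adjusted p = 1.00), and was the 1 tested member under an unadjusted 0.05, where 1.51% of all tested probe sets were under it in this direction. The difference was 0.81 with an SE of 0.43 for 1420847_a_at. For Fgfr1 it was -0.24, -0.76 and -0.20 for 1424050_s_at, 1425911_a_at and 1436551_at. EpH4 enters that test with a single pair of arrays.

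The lines did not start from the same state. Cdh1, encoding the epithelial adhesion protein E-cadherin, was at 11.84 in resting EpH4 and 10.69 in NMuMG but at 3.53 in mProx and 3.87 in MCT. Vim, encoding the mesenchymal filament protein vimentin, was at 4.02 in EpH4 and at 13.20 to 13.31 in the other 3 lines. Of 8 epithelial markers 7, 5, 7 and 7 were at or above the filter level in resting EpH4, mProx, MCT and NMuMG, and of 8 mesenchymal markers 7, 7, 6 and 8. The kidney factor gene Pax8 was at 10.90 and 9.66 in resting mProx and MCT against 5.78 and 5.25 in EpH4 and NMuMG. Slc34a1, the phosphate transporter of the proximal tubule, lay close to the filter level at rest in all 4, at 5.26 in mProx and 5.54 in NMuMG. Of 6 kidney tubule markers analysed 5 reached the filter level in every resting line, and of 8 mammary markers 7 did in EpH4, 5 in NMuMG, 4 in MCT and 3 in mProx. Of 4 endothelial and of 4 leukocyte markers at most 2 did on any array. With stimulation the median change of the 8 epithelial markers was 0.46 and that of the 8 mesenchymal markers 0.54, against 0.01 for all tested probe sets, and 0 of either were called. The summed normalized signal ran from 3290 to 26500 at rest and 5370 to 31700 after stimulation for the epithelial list, and from 7870 to 29100 and 8980 to 32900 for the mesenchymal one. Of each list 4 were higher in each of 4 lines (2 of the mesenchymal with one trimmed mean), against 10.1% of all tested probe sets. The epithelial ones were Krt8, Krt18, Cldn4 and Epcam, and the mesenchymal ones Vim, Fn1, Zeb2 and Col1a1. Fn1 had a change of 2.14 in MCT and 1.43 in mProx but 0.17 in EpH4 and 0.11 in NMuMG. Snai2 had 1.38 in NMuMG, 1.33 in mProx and 0.77 in MCT but -0.19 in EpH4. Zeb1 was lower in 3 lines. By mean change 7 of the 8 mesenchymal markers were higher and 1 lower. Ocln, of the tight junctions, was lower in each, though not on the values as deposited. By mean change 5 of the 8 epithelial markers were higher and 3 lower. Cdh1 had a change of -0.62 in NMuMG and -0.23 in EpH4, and of 0.60 in MCT and 0.03 in mProx, from dim levels. Tjp1 was lower in 3 lines, and Krt19 was lower in NMuMG, at -0.59, and higher in the other lines. The part of the markers in the receptor changes was not tested.

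The epithelial markers did not order the lines in one way. Resting Krt8, a keratin of simple epithelia, was at 12.33 in EpH4, 11.96 in NMuMG, 9.39 in mProx and 5.82 in MCT, while Epcam, an epithelial adhesion protein, was at 12.35 in EpH4, 6.67 in MCT, 4.12 in mProx and 3.90 in NMuMG. MCT, the other kidney line, had the lowest Fgfr2 and also the lowest Fgfr1 at rest by each tested probe set. In the tests of resting cells, Fgfr2 1420847_a_at was 1.17 higher in EpH4 than in the other 3 lines with an SE of 1.05, and 1.04 lower in kidney than in mammary lines with an SE of 0.89, and neither was called (limma adjusted p = 0.843 and 0.900).

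RefSeq's promoter table for GRCm38.p6 held entries for 5 of the 6 members. The 250 bases upstream of the Fgfr2 start are shown because the tested Fgfr2 probe sets had the lowest mean changes of the members. Those of Fgfrl1 are shown for contrast, as a receptor gene with much smaller changes, though the mean changes of the tested Fgfr4 probe sets were smaller still. Capitals mark matches, on both strands, to an E-box of ZEB and SNAI factors (CAGGTG), a SMAD element (CAGAC), an AP-1 site (TGANTCA), an ETS core (CCGGAA) and a GC box (GGGCGG).
Fgfr2 (GRCm38.p6, chr7:130266809-130267058, minus strand): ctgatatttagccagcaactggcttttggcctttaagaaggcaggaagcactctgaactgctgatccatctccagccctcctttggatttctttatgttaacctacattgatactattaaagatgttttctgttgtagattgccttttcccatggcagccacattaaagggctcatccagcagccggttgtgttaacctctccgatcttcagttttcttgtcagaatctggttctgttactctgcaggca
Fgfrl1 (GRCm38.p6, chr5:108693979-108694228, plus strand): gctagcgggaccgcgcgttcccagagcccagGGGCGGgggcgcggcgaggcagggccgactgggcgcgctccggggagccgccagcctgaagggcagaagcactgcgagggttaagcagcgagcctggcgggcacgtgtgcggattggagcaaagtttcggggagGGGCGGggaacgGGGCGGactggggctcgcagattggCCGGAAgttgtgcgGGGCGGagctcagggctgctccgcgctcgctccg
The Fgfr2 window has 44.0% G or C and 2 CpG, against 73.6% and 30 in Fgfrl1 and a mean G or C of 53.2% over all 32851 windows of the table. Fgfrl1 has the highest G or C of the member windows. It is 62.4% for Fgf2, 64.0% for Fgfr4, and 66.8% and 72.8% for Fgfr3, so Fgfr2 is the exception among them. None of the 5 motifs has a match in the Fgfr2 window, whereas the Fgfrl1 window has 4 GC boxes and 1 ETS core. Of all windows, 17.2% hold the E-box, 42.2% the SMAD element, 6.75% the AP-1 site, 12.0% the ETS core and 32.7% the GC box. A missing match says only that these letters are not in this stretch.

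Fgfr3 is a receptor with epithelial and skeletal roles, and Fgfrl1 a receptor-like protein that lacks the tyrosine kinase domain. Fgfr3 1421841_at was lowest in EpH4, at 6.41 at rest, against 7.66 in NMuMG, 7.97 in mProx and 8.22 in MCT. After stimulation it was 6.68, 6.86, 8.11 and 8.01 in the same order, so that NMuMG came down to the range of EpH4 while the kidney lines stayed near 8. Its change was -0.80 in NMuMG, -0.21 in MCT, 0.14 in mProx and 0.27 in EpH4, a mean of -0.15 ± 0.48 (SD, n = 4). On the values as deposited all 4 lines were below 0, mProx at -0.01 and EpH4 at -0.0014, so the sign in these lines depends on the scaling.

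The second Fgfr3 probe set, 1425796_a_at, was dimmer and was also lower in NMuMG, at -1.08, but differed in direction in EpH4, at -1.06, and in both lines it was under the filter level after stimulation. Over the 4 lines its mean change was -0.56 ± 0.60 (SD, n = 4). Neither probe set passed limma's test of the response (adjusted p = 0.820 and 0.495). At rest the level of Fgfr3 1421841_at in EpH4 minus that in the other 3 lines was -1.54, with an SE of 0.50 and a limma adjusted p of 0.550, and it was the 1 tested member under an unadjusted p of 0.05. That comparison called 3 probe sets, 0.0111% of those tested, and 8.19% were under an unadjusted 0.05, 4.41% of all tested being lower in EpH4. That count was 0 without mProx, 0 without MCT and 0 without NMuMG.

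Fgfrl1 was higher in the kidney than in the mammary lines. Its probe set 1447878_s_at was at 10.26 in resting mProx, 9.82 in MCT, 9.00 in NMuMG and 8.87 in EpH4, and 1451912_a_at at 9.34, 9.09, 6.93 and 7.69 in the same order. After stimulation they were at 10.34, 10.33, 9.53 and 8.98, and at 9.21, 9.26, 7.63 and 8.18. By both probe sets the kidney lines were above the mammary lines at rest and after stimulation. How many of all probe sets part the lines in this way was not counted, and the stimulated arrays come from the same lines. The kidney lines were higher at rest by 1.10 (SE 0.38) and 1.91 (SE 0.48), with unadjusted p = 0.0340 and 0.00990 and limma adjusted p = 0.741 and 0.572. In that comparison 0 of 27022 probe sets passed and 1701, or 6.29%, were under an unadjusted 0.05. Higher in kidney at that p were 3.93% of all tested probe sets and, of the 11 tested members, these 2.

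The response of Fgfrl1 was smaller than these differences between tissues. With 1447878_s_at the change was 0.53 in NMuMG, 0.51 in MCT, 0.11 in EpH4 and 0.09 in mProx, a mean of 0.31 ± 0.24 (SD, n = 4; limma adjusted p = 0.401). With 1451912_a_at it was 0.70 in NMuMG, 0.49 in EpH4, 0.17 in MCT and -0.13 in mProx, a mean of 0.31 ± 0.36 (SD, n = 4; limma adjusted p = 0.526). NMuMG had the largest value by both. On the values as deposited only 2 of 4 lines were higher by either probe set.

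Fgfr4, a receptor best known from liver, passed the filter with 2 of its 5 probe sets. The tested probe set 1427846_x_at, marked by the platform's naming as open to cross-hybridisation, lay between 6.25 and 6.62 at rest and between 5.99 and 6.78 after stimulation. The other tested one, 1418596_at, lay between 5.47 and 6.12 and between 5.73 and 6.04. Their mean changes were -0.04 ± 0.27 and 0.11 ± 0.37 (SD, n = 4; limma adjusted p = 0.961 and 0.891), and their levels did not follow each other over the 8 arrays (r = -0.05).

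The 3 dim Fgfr4 probe sets did not share a direction either. With 1427845_at and 1427776_a_at all 8 arrays were under the filter level, and the lines were split. With 1427777_x_at, likewise marked for cross-hybridisation and under the filter level on 6 arrays, the deposited signal was 8.20 to 10.0 at rest and 11.0, 14.5, 37.0 and 49.0 in stimulated MCT, EpH4, mProx and NMuMG. Its groups did not overlap, as was so for 0.639% of all analysed probe sets in this direction, and no other Fgfr4 probe set showed this.

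Fgf2, a ligand of the IIIc receptor forms, was at the bottom of the scale. Its single probe set, 1449826_a_at, had deposited signals of 3.90, 17.2, 10.3 and 2.40 in resting EpH4, mProx, MCT and NMuMG and of 11.0, 21.1, 1.20 and 18.3 after stimulation. All 8 log2 levels, between 3.58 and 4.95, were under the filter level, and the changes of 1.05 in NMuMG, 0.73 in EpH4, 0.28 in mProx and -0.85 in MCT are differences between dim values.

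**Figure D3:**
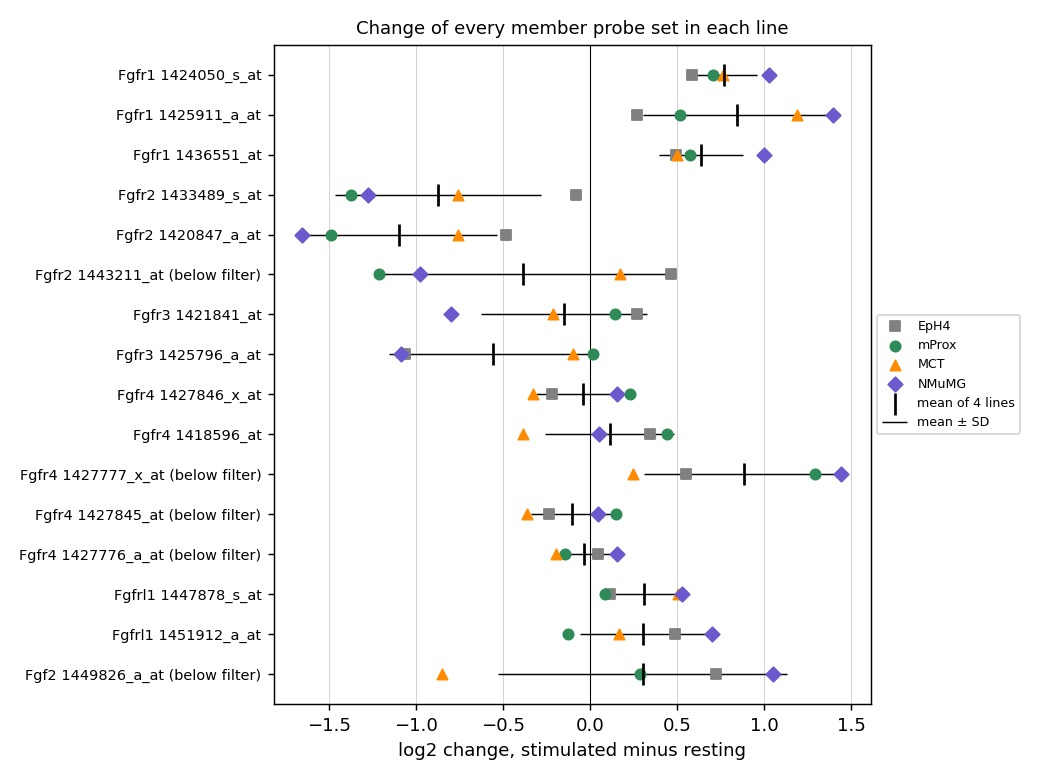
Change (log2, stimulated minus resting) of all 16 member probe sets, with a symbol per cell line, a vertical bar at the mean of 4 lines and a horizontal line for mean ± SD. The Fgfr1 symbols lie right of 0 and those of the 2 tested Fgfr2 probe sets left of it, while Fgfr3 and Fgfr4 lie on both sides.

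**Figure D4:**
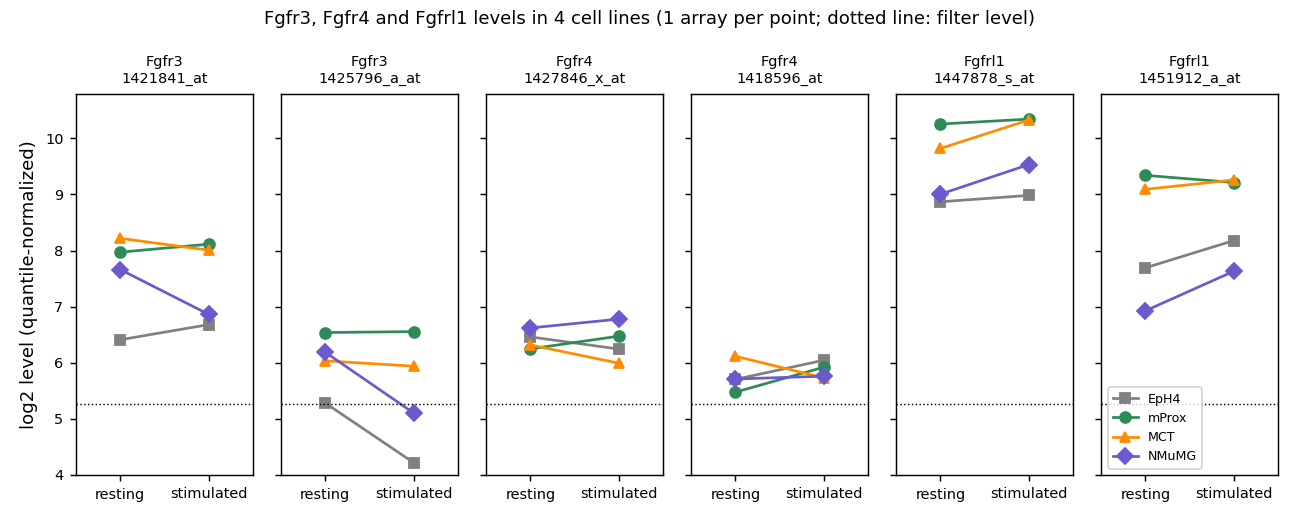
Log2 level (quantile-normalized) of the tested Fgfr3, Fgfr4 and Fgfrl1 probe sets at rest and after stimulation, with a point per array; the dotted line is the filter level of 5.27. Fgfrl1 is higher in mProx and MCT than in NMuMG and EpH4 by both probe sets, and Fgfr3 1421841_at is lowest in EpH4.

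Of the genes that choose between the IIIb and IIIc forms of Fgfr2, Esrp1 differed most between the lines. Esrp1, a splicing factor of epithelial cells that promotes IIIb, was at 12.02 in resting EpH4 and 12.10 after stimulation, against 4.43 and 3.93 in mProx, 6.55 and 7.52 in MCT and 4.51 and 3.64 in NMuMG. It was thus dim in NMuMG and mProx, and below the filter level on both arrays of each. Its relative Esrp2 lay between 6.80 and 7.57 on all 8 arrays, with a mean change of 0.34 ± 0.13 (SD, n = 4), higher in each line except EpH4 on the values as deposited, where it was -0.12. Rbfox2, another regulator of this splicing choice, was at 8.08 in resting EpH4 and 8.86 to 9.85 in the other 3 lines. Its change was 0.13 ± 0.03, and on the values as deposited only NMuMG was higher. The general splicing regulators Ptbp1, Hnrnpa1, Tia1 and Hnrnpm had mean changes of -0.01, 0.16, -0.18 and 0.10. Of these 7 genes 0 passed limma's test (adjusted p from 0.446 to 0.983), and 1 was under an unadjusted p of 0.05, against 11.0% of all tested probe sets.

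Few FGF ligands were bright enough to be tested. Of 21 ligand genes other than Fgf2, 9 passed the filter, 7 with a higher and 2 with a lower mean after stimulation, a median change of 0.19 against 0.01 for all tested probe sets, and 0 were called or under an unadjusted p of 0.05. Of all tested probe sets 11.0% were under that p, and 13787 of 27022 had a higher mean. Fgf13, an intracellular member that does not act through the receptors, was at 9.37 in resting EpH4 and 7.06 in NMuMG but under 4 in mProx and MCT, and had a change of -0.78 in NMuMG. Fgf21, an endocrine member, was at 7.24 in resting EpH4 and under the filter level on 3 arrays. It had a change of 1.08 in MCT, from a dim level, and 0.67 in mProx. Fgf1, which binds all of the receptors, had a change of 1.10 in EpH4, from a dim level, and by 0.33, -0.01 and -0.30 in MCT, NMuMG and mProx. Fgf3, Fgf11 and Fgf4 had mean changes of 0.66, 0.24 and 0.19, with dim arrays for Fgf3 and Fgf11, and on the values as deposited Fgf3 was higher in 2 lines. Fgf7 and Fgf10 are the stromal ligands of the IIIb form. Fgf7 was near the filter level, at 5.45 to 5.81 over the 8 arrays. Fgf10 was below it on 6 arrays, from 4.20 to 5.25, but at 6.31 in resting and 6.09 in stimulated mProx, and was not tested.

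Co-receptors and heparan sulfate proteins, which hold FGF at the receptor, moved in both directions. Of 18 tested genes 9 had a higher and 9 a lower mean, with a median change of -0.02, and 0 were called while 4 were higher and 1 lower at an unadjusted p under 0.05. At that p 5.79% of all tested probe sets were higher and 5.20% lower. Gpc1, a glypican, had changes of 1.29 in NMuMG, 1.03 in mProx and 0.71 in MCT against -0.02 in EpH4, with a limma adjusted p of 0.0801 in the 3 lines. Sdc3, a syndecan, had a change of 1.11 in EpH4, 0.73 in NMuMG, 0.17 in mProx and 0.16 in MCT, the last of these turning to -0.13 on the values as deposited. Flrt2 and Flrt1, membrane proteins that associate with FGF receptors, had mean changes of 0.62 ± 0.63 and -0.62 ± 0.66, and on the values as deposited Flrt2 was higher in 2 lines. Fgfbp1, a carrier that releases FGF from the matrix, had a change of -2.33 in NMuMG, -1.22 in MCT and -0.23 in EpH4 but by 1.55 in mProx, with dim arrays in 3 lines. Fgfbp3 had a change of 0.33 ± 0.52. The klotho genes Kl and Klb, co-receptors for endocrine FGFs, were below the filter.

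Downstream of the receptors, the adaptor and ERK cascade genes had mean changes in both directions. Of 13 tested genes 8 had a higher and 5 a lower mean, with a median change of 0.13, and 0 were called, with 3 higher and 1 lower at an unadjusted p under 0.05. The shares of all tested probe sets at that p were 5.79% higher and 5.20% lower. The docking protein gene Gab1 had a change of -1.12 in mProx, -0.77 in MCT and -0.61 in NMuMG against 0.0033 in EpH4, which was -0.30 on the values as deposited. Frs3, a docking protein of FGF receptors, was higher by 0.35 ± 0.07 (SD, n = 4), Map2k1, the ERK kinase MEK, by 0.28 ± 0.11, Cbl by 0.33 ± 0.29, Nras by 0.19 ± 0.12 and Grb2 by 0.15 ± 0.05. On the values as deposited Frs3 and Map2k1 were lower in EpH4, Nras in 2 lines, Grb2 in 3 and Cbl in mProx.

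Feedback regulators and target genes of FGF and ERK signalling had the highest median change of the 5 pathway lists, and EGF in the stimulus acts on the same cascade. Of 10 tested genes 9 had a higher mean, with a median change of 0.36, and 5 were under an unadjusted p of 0.05, all higher, while 0 were called. Among all tested probe sets 5.79% were higher at that p, and 13787 of 27022 had a higher mean. Etv5 and Etv4, ETS factors downstream of FGF receptors, were higher by 2.91 and 3.03 in mProx, by 1.49 and 1.52 in NMuMG, by 1.27 and 0.90 in MCT and by 1.30 and 1.07 in EpH4 (limma adjusted p = 0.113 and 0.152). Dusp6, the ERK phosphatase, had a change of 2.44 in mProx, 1.47 in MCT and 0.92 in EpH4 but by -0.24 in NMuMG, where it was highest at rest, at 10.51, and where it turned to 0.13 on the values as deposited. Spred2, Spry2 and Il17rd, inhibitors of the pathway, had a change of 0.44 ± 0.21, 0.43 ± 0.30 and 0.30 ± 0.33, with Il17rd lower in EpH4. Spry2 was lower in EpH4, and Il17rd also in MCT, on the values as deposited. For both ETS genes the change in EpH4 was above that in MCT, for Etv5 only at 1.30 against 1.27. With 1 array per line and condition this order has no spread against which to be judged.

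**Figure D5:**
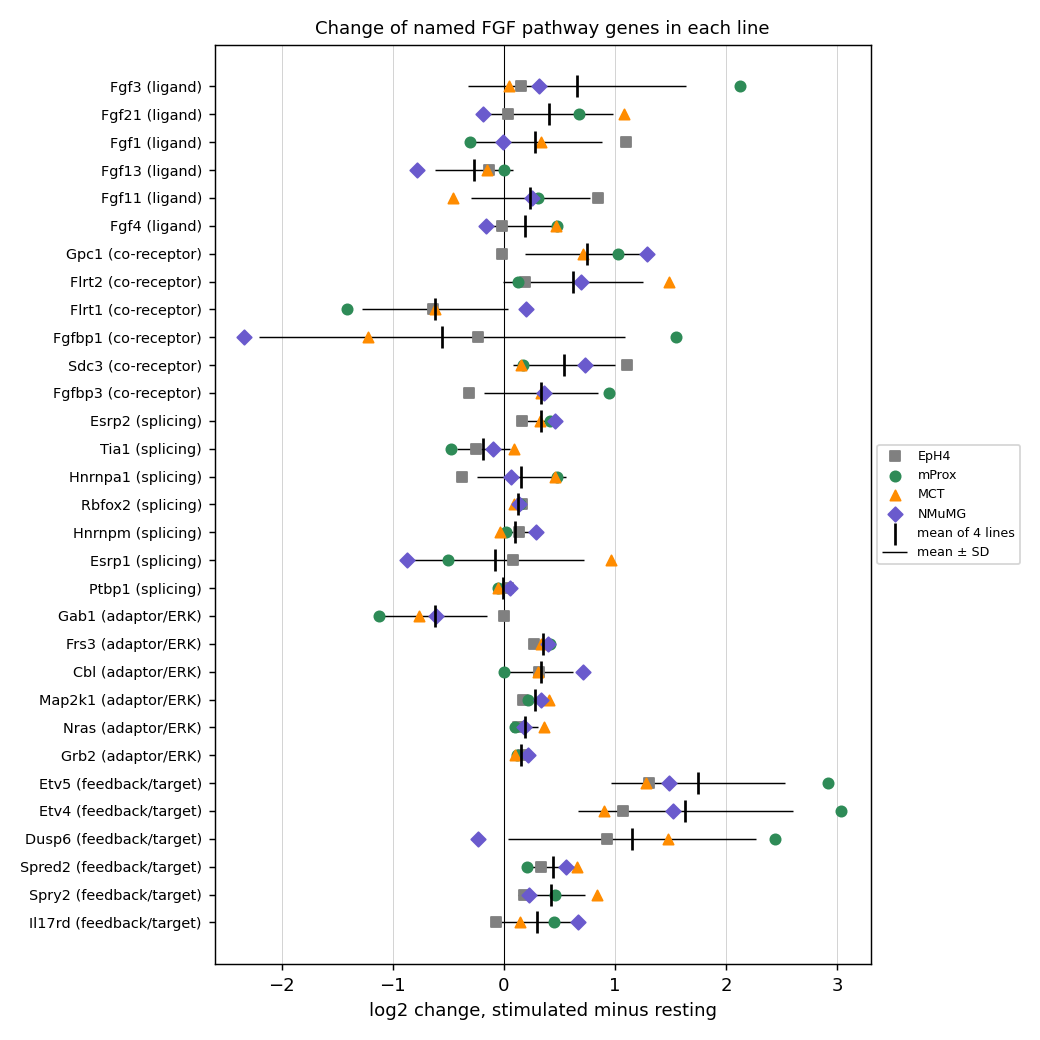
Change (log2, stimulated minus resting) of the named FGF pathway genes in each cell line, with a vertical bar at the mean of 4 lines and a horizontal line for mean ± SD. Etv5 and Etv4 lie farthest to the right, with mProx at 2.91 and 3.03. The splicing regulators other than Esrp1 lie between -0.48 (Tia1 in mProx) and 0.47 (Hnrnpa1 in mProx).

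By likeness of level over the 8 arrays, which share their lines and treatment, the 5 genes nearest to Fgfr1 1424050_s_at among 16010 candidate probe sets were Lrrk1 (Pearson r = 0.967), Mon1b (0.953), Fkbp7 (0.950), Itgb1 (0.949) and Rap2c (0.943). Itgb1, the integrin β1 chain that pairs with many α chains, had a change of 2.31 in NMuMG, 1.06 in EpH4, 0.91 in MCT and 0.77 in mProx with its probe set 1427771_x_at, which is marked for cross-hybridisation. Nearest to Fgfr2 1433489_s_at among 16011 were Eprn (r = 0.979), Prkaa2 (0.974), Ugp2 (0.965), Fam234a (0.965) and Tma16 (0.963). Prkaa2, a catalytic subunit of the energy sensor AMPK, had a change of -0.78 in mProx, -0.70 in NMuMG, -0.57 in MCT and -0.04 in EpH4, and Ugp2, which makes UDP-glucose, by -0.94 in NMuMG, -0.78 in mProx, -0.24 in MCT and 0.04 in EpH4. With so many candidates and 8 arrays, coefficients of this size are a description only.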

How the data were processed

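The submitters deposited array intensities on a linear scale for 45101 probe sets, made with MAS5 per the submitters' processing notes (version and scaling not given in the sources used here). Gene names come from the platform's annotation table, and the 16 member probe sets matched GRCm38.p6 by Entrez identifier with 0 symbols changed. After leaving out 64 control probe sets, 10.6, the 25th percentile of the positive deposited intensities, was added and log2 taken, which understates changes of dim genes. Array medians then differed by 0.43, above the limit of 0.3, so the log2 values were quantile-normalized. Trimmed means of the deposited signals differed by up to 1.81-fold.

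The tests were those of limma 3.58.1, run in R 4.3.3 (intensity trend, Benjamini-Hochberg, threshold 0.05), with the cell line as a block in every response. The line names give the pairing, and the 2 arrays of a line deviated together from their group means (r = 0.887, 0.804, 0.762 and 0.857). The pipeline was tested on simulated data. List genes were represented by their brightest probe set, and each list other than the splicing regulators by up to 6 genes of largest mean change. Genes of a list without a probe set of their own symbol were not analysed here. Members and lists were chosen with earlier results of these data known.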

Additional observations from a re-analysis of the deposited data

Results flagged for a closer look

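The arrays of a group, or the changes of the 4 lines, were compared with each other for 42 probe sets of members and named pathway genes, 126 sets of 4 values, and in 7 a single value stood apart by Dixon's rule, which chance does in about 1 of 20. The resting level of Fgfr2 1433489_s_at in MCT was 7.26 against 8.97 to 9.19 in the other lines. The change of Fgfr1 1436551_at in NMuMG was 1.00 against 0.49 to 0.57. In mProx the change of Etv5 was 2.91 against 1.27 to 1.49, that of Fgf3 2.12 against 0.05 to 0.32, from a dim level, and the stimulated level of Flrt1 7.81 against 6.29 to 6.49. The resting level of Tia1 in EpH4 was 8.74 against 9.30 to 9.41, and the stimulated level of Gab1 in MCT 8.17 against 8.96 to 9.03. In 2 genes both kidney lines changed one way and both mammary lines the other, a difference that was not tested. Kidney minus mammary it was 0.57 for Fgf4 and -0.10 for Ptbp1. On the values as deposited neither gene kept this split, with Fgf4 at 0.07 in NMuMG and -0.29 in EpH4 and Ptbp1 at 0.40 and -0.20, and with one trimmed mean all 4 changes of Ptbp1 were above 0.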

How the results depend on the processing

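Fgfr1 kept its direction in all 65 refits of its 3 tested probe sets, with changes from 0.45 to 1.29, Fgfr2 in 44 of 44 (-1.57 to -0.70) and Fgfrl1 in 44 of 44 (0.02 to 0.52). These refits share most of their arrays, and many could not turn. Dropping the filter, the intensity trend or the replicate block, or taking 1 probe set per gene, leaves the change itself as it was. Leaving out a line cannot turn a mean of changes that all have the same sign, as in Fgfr1 and Fgfr2. The 4-line fit without EpH4 repeats the 3-line fit. Of Fgfr1, 1 refit passed the threshold, and of Fgfr2, 4, all on the values as deposited. Fgfr3 1421841_at turned to 0.0671 over the lines without NMuMG. Fgfr4, near 0 throughout, turned in 9 of 44. In the 3 lines 1418596_at went to -0.0114 as deposited, -0.0202 with one trimmed mean and -0.17 without mProx, and 1427846_x_at to -0.0418, -0.0543, -0.0839 (without mProx) and -0.0492 (without NMuMG). Over 4 lines 1427846_x_at went to 0.02 without EpH4 and 0.0563 without MCT.

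Counts of called probe sets moved more, and the cause was not tested. On the values as deposited 417 were called for 4 lines, 372 for 3 lines, 13 for the EpH4 difference, 35 for resting EpH4 and 11 for resting kidney against mammary. With one trimmed mean the 4-line count was 2 and that of resting EpH4 0. An offset of 1 gave 1 (4 lines) and 8 (3 lines), and an offset of 50 gave 5, 4 and, for resting EpH4, 1. With no filter it was 0 (3 lines) and 1 (resting EpH4), without the intensity trend 0 for both, and with 1 probe set per gene 1 for resting EpH4. Without the replicate block of the paired design the 3-line count was 0, and no other call changed. Leaving out a line gave 0 to 18 over 4 lines, 17 to 101 over 3 lines (42 without mProx) and 0 to 0 for resting EpH4. Leaving out EpH4 is impossible for the 2 comparisons that rest on it. The number of arrays limits the precision.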
